A study of Mus musculus with 18 samples.

Results

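The 8 genes described here, Adamts1, Adamts4, Adamts5, Adamts8, Adamts9, Adamts10, Adamts12 and Adamts15, encode Adamts proteases of the extracellular matrix that are not procollagen-processing enzymes. They were taken by name from the deposited table of counts, which lists 55453 genes, and all 8 of them were among the 16170 genes that passed the filter on low counts. The list holds 8 of the 19 Adamts genes in the table, 17 of which passed that filter.

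Adamts proteins (a disintegrin and metalloproteinase with thrombospondin motifs) are secreted zinc proteases. They are made as inactive precursors that furin-like convertases trim, and their thrombospondin repeats tie them to the matrix. Several of them cut the large hyaluronan-binding proteoglycans versican and aggrecan, versican being a main component of the provisional matrix of the developing heart. Timp3 is their chief natural inhibitor, and the endocytic receptor Lrp1 removes some of them from the pericellular space.

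RNA was sequenced in bulk from GFP+ cells sorted from the hearts of C57BL/6J pups carrying Tcf21-MerCreMer and Rosa-mTmG. In every group tamoxifen was given at P1, so that cells expressing Tcf21, a transcription factor of resident cardiac fibroblasts, switched permanently from tdTomato to GFP. Un-manipulated hearts were taken at P2 and P10 (baseline), and operated hearts, in which the apex was resected or left whole (sham), were taken 3 days after surgery on these days, at P5 or P13, which gave 6 groups of 3 libraries. The study regards P2 as the regenerative and P10 as the non-regenerative age, and the 9 libraries that started at each age are called the P2 window and the P10 window below. Surgery groups were therefore always 3 days older than the baseline group of their window, and surgery and growth cannot be told apart in a comparison with baseline. The lineage label covers cells in which Tcf21 was active around P1 and their descendants, and whether a library came from 1 heart or from several is not given in the sources used here.

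Between 10462737 and 22980554 reads per library fell on genes. Levels are given in CPM (counts per 1e+06 counts) on scaled library sizes, and a gene is said to have risen or fallen where edgeR's quasi-likelihood test gave a Benjamini-Hochberg adjusted p under 0.05 over all genes tested. Tcf21 was present at 203 to 447 CPM in every library, and 8 fibroblast markers summed to 46085 to 93172 CPM in the P2 window and 78082 to 114356 CPM in the P10 window. Summed cardiomyocyte markers ranged from 272 to 1293 CPM and from 136 to 678 CPM in these windows, macrophage markers from 5.29 to 374 CPM and from 16.99 to 949 CPM, and endothelial markers from 173 to 478 CPM and from 252 to 491 CPM. In 4 libraries (P2 sham +3 days replicate 1, P2 resected +3 days replicate 3, P10 baseline replicate 1 and P10 sham +3 days replicate 1) the stress-inducible Hsp70 genes Hspa1a and Hspa1b summed to 166 to 222 CPM, against 20.4 to 52.0 CPM in the other 14. These 4 libraries also hold the 4 highest values of Adamts1 and of Adamts4, so comparisons between groups were also made without them.

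The members lie on 6 chromosomes of GRCm38, and their exons were annotated with GENCODE M21. Adamts1 (chr16:85793827-85803113, minus strand) and Adamts5 (chr16:85856173-85901828, minus strand) are neighbours, 53.1 kb apart with 0 protein-coding genes between them. Adamts8 (chr9:30942562-30963838, plus strand) and Adamts15 (chr9:30899155-30922452, minus strand) are also neighbours, 20.1 kb apart with 0 protein-coding genes between them and read away from each other. Adamts4 is at chr1:171250421-171260637, Adamts9 at chr6:92772699-92943492, Adamts10 at chr17:33524204-33553782 and Adamts12 at chr15:11064790-11349231. Counting ignored the strand of a read, and 10.6% of the exon bases of Adamts8, 12.0% of those of Adamts9 and 3.56% of those of Adamts4 are shared with a gene on the other strand. Adamts1, Adamts5, Adamts10, Adamts12 and Adamts15 share 0 exon bases with another gene.

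Promoter sequences were at hand for 3 members, Adamts1, Adamts9 and Adamts12, and are shown for these. Each is the run of 250 bases before the annotated start in the RefSeq table for GRCm38.p6, 5′ to 3′ on the gene's own strand, with every match to the motifs searched in capitals.

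Adamts1, chr16:85803114-85803363, minus strand: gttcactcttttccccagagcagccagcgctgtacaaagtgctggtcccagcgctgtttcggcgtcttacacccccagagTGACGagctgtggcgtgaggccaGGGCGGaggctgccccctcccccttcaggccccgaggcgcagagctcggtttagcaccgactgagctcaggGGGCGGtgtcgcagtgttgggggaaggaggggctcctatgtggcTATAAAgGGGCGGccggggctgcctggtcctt

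Adamts9, chr6:92943535-92943784, minus strand: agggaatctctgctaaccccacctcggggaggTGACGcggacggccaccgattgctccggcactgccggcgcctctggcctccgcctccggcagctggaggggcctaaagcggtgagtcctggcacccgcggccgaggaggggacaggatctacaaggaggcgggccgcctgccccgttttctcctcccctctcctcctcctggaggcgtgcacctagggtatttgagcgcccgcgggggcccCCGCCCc

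Adamts12, chr15:11064523-11064772, plus strand: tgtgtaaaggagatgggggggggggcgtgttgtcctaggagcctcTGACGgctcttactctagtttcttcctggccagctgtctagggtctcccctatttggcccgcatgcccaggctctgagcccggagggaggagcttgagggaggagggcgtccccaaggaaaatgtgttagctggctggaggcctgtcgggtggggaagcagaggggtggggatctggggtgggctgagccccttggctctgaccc

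Both strands were searched for the full cAMP response element TGACGTCA, its core TGACG (contained in the full element), the AP-1 site TGANTCA, a heat shock element GAANNTTC, the CArG box, the Sp1 site GGGCGG and the TATA box TATAAA. The core of the cAMP response element was found once in each of the 3 promoters, with its first base 170 bases before the start in Adamts1, 218 in Adamts9 and 205 in Adamts12, and it occurs in 17.8% of the 32851 promoters of the table. Adamts1 also held 3 Sp1 sites, at 147, 76 and 25 bases, and a TATA box at 32 bases. Adamts9 held 1 Sp1 site at 7 bases. Sp1 sites occur in 32.7% and the TATA box in 12.4% of all promoters. The full cAMP response element (in 1.55% of promoters), the AP-1 site (6.75%), the heat shock element (6.69%) and the CArG box (1.47%) had 0 matches in these 3 windows. A match of letters is not a bound site, and the absence of one says only that these letters are not in this stretch.

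Compared per length of exon, Adamts1, a versican-cutting protease needed for the trabeculation of the embryonic ventricle, was the most abundant member. Its mean over the 6 groups was 56.9 RPKM (CPM per kilobase of exon), with an SD within groups of 49.8 (3 libraries in each of 6 groups). Adamts4, an aggrecanase, followed at 29.5 ± 32.6 RPKM, and Adamts10, which binds fibrillin microfibrils and is mutated in Weill-Marchesani syndrome, at 29.2 ± 9.98 RPKM. Adamts5, the other main aggrecanase, was at 17.9 ± 7.38 RPKM, Adamts15 at 12.2 ± 3.56 RPKM, Adamts12, which cuts cartilage oligomeric matrix protein, at 10.4 ± 5.47 RPKM, and Adamts8 at 7.96 ± 2.77 RPKM. Adamts9, the orthologue of the worm protease GON-1, was the lowest at 0.807 ± 0.456 RPKM. Only the steps from Adamts10 to Adamts5 and from Adamts8 to Adamts9 were wider than the SD of both neighbours. The order also depends on the exon length used. With the longest annotated transcript in place of all exons, Adamts10 came to 58.4, Adamts15 to 21.4 and Adamts9 to 1.51 RPKM, which placed Adamts10 beside Adamts1 (61.7 RPKM) and Adamts15 above Adamts5 (17.9 RPKM).

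**Figure D1:**
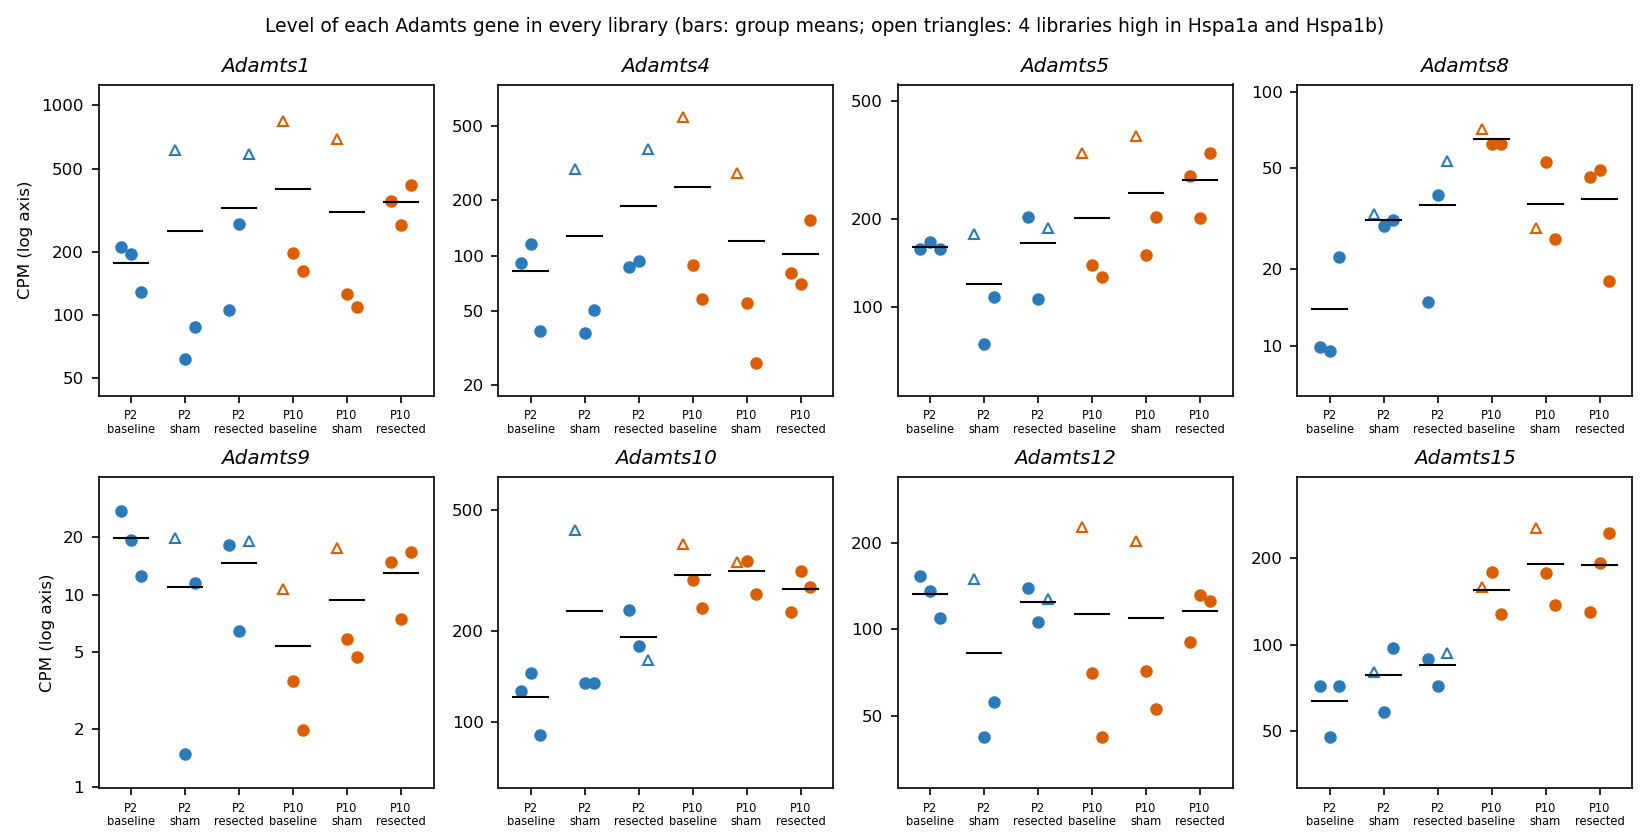
Level of each of the 8 Adamts genes in CPM (log axis) in the 3 libraries of each group, with P2-window libraries in blue, P10-window libraries in orange, group means as bars, and the 4 libraries high in Hspa1a and Hspa1b as open triangles. For Adamts15 the 9 P10-window libraries (128 to 255 CPM) all sit above the 9 P2-window libraries (47.8 to 97.1 CPM), while for Adamts1 and Adamts4 the 4 open triangles are the highest points of the panel.

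The first comparison asked how the members differed between the P2 and P10 windows. Of the 8 members, Adamts15, Adamts10 and Adamts8 were higher in the P10 window and 0 were lower, where 7.11% of all genes tested were higher and 13.5% differed in either direction. The median log2 fold change of the 8 members was 0.60 and that of all genes tested was -0.06, and 7 of the 8 estimates were positive. These data cannot tell a change in the RNA of each fibroblast from a change in the share of a fibroblast subtype among the sorted cells.

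Adamts15, a protease that cuts versican and aggrecan, differed most clearly with age. At P2 baseline it was at 72.0, 47.8 and 72.1 CPM, at P2 sham +3 days at 80.4, 58.4 and 97.1 CPM, and at P2 resected +3 days at 89.5, 71.8 and 93.6 CPM. In the P10 window the values were 159, 178 and 128 CPM at baseline, 255, 177 and 138 CPM after sham surgery, and 130, 192 and 244 CPM after resection. Every one of the 9 P10 libraries lay above all 9 P2 libraries. Such a complete separation upwards was seen in 1.15% of the genes tested. The log2 fold change was 1.23 (SE 0.17, n = 9 per window, edgeR adjusted p = 7.13e-05), with a mean of 178 ± 46.4 CPM against 75.8 ± 16.3 CPM (SD). Removing any 1 of the 18 libraries left Adamts15 called in the window comparison. It was also the member with the smallest spread between replicates, at percentile 19.9 among all genes tested, and in the test for any difference among the 6 groups it was the 1 member called (adjusted p = 0.00290), against 5.56% of all genes.

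The age difference of Adamts15 had nearly the same size at baseline (log2 fold change 1.28, SE 0.29, edgeR adjusted p = 0.0168), after sham surgery (1.27, SE 0.29, adjusted p = 0.0197) and after resection (1.15, SE 0.29, adjusted p = 0.0736). The P10 values lay above the P2 values without overlap in each of these 3 comparisons, as did those of 10.3%, 9.07% and 10.6% of all genes, but the last comparison missed the threshold. The contrast of the age difference at baseline with that after surgery was 0.07 (95% interval -0.67 to 0.80), so a difference of up to 0.80 on the log2 scale was not resolved. Without P10 resected +3 days replicate 1 the resected comparison reached 1.36 (adjusted p = 0.0469), whereas the sham comparison was no longer called without P2 sham replicate 1, P2 sham replicate 2 or P10 sham replicate 1 (adjusted p = 0.0509, 0.0883 and 0.106). With the 4 libraries high in Hspa1a and Hspa1b left out, Adamts15 kept its call over the whole window (1.17, SE 0.18, adjusted p = 0.000423), lost it after sham surgery (1.02, adjusted p = 0.133) and stayed short of it after resection (1.23, adjusted p = 0.0738). The baseline comparison lost its call without P2 baseline replicate 1, P2 baseline replicate 2 or P10 baseline replicate 2 (adjusted p = 0.0526, 0.0928 and 0.0840).

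Adamts10, the fibrillin-binding member, was at 127, 146 and 91.3 CPM at P2 baseline and at 388, 294 and 239 CPM at P10 baseline. The P2 libraries after sham surgery had 430, 135 and 134 CPM and those after resection 235, 179 and 161 CPM. At P10 it was at 339, 341 and 265 CPM after sham surgery and at 231, 315 and 281 CPM after resection. The highest value of all, 430 CPM, was therefore in a P2 library, P2 sham replicate 1, which is 1 of the 4 libraries high in Hspa1a and Hspa1b. The other 8 P2-window libraries, at 91.3 to 235 CPM, overlapped the P10 window (231 to 388 CPM) with 1 library. The window difference was 0.76 on the log2 scale (SE 0.21, n = 9 per window, edgeR adjusted p = 0.0214) and stayed called whichever library was removed, reaching 1.03 without P2 sham replicate 1 and 0.91 without the 4 libraries (SE 0.14, adjusted p = 0.000372).

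Adamts8, a weak aggrecanase also known from the pulmonary vasculature, showed its age difference at baseline. It was at 9.90, 9.54 and 22.3 CPM at P2 baseline against 71.3, 62.5 and 62.3 CPM at P10 baseline. After sham surgery it was at 33.1, 29.6 and 31.3 CPM in the P2 window and 29.1, 53.0 and 26.3 CPM in the P10 window, and after resection at 14.8, 39.1 and 53.4 CPM and at 46.3, 49.4 and 18.0 CPM. The baseline groups were thus far apart and the surgery groups of the 2 ages overlapped. Over the whole window the log2 fold change was 0.84 (SE 0.27, n = 9 per window, edgeR adjusted p = 0.0431), a call that held in 5 of the 18 fits with 1 library left out, where the adjusted p reached 0.101. The 13 libraries whose removal ended the call came from all 6 groups. It was called without the 4 libraries high in Hspa1a and Hspa1b (1.01, SE 0.30, adjusted p = 0.0278).

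Of the other members, Adamts5 came closest to a call in the window comparison, with 149 ± 42.2 CPM in the P2 window and 238 ± 95.6 CPM in the P10 window (SD, n = 9 each). Its log2 fold change was 0.69 (SE 0.24, edgeR adjusted p = 0.0637), and it passed the threshold under 8 of 24 other settings, among them DESeq2 (0.71, adjusted p = 0.0359) and the fit without the 4 libraries high in Hspa1a and Hspa1b (0.49, adjusted p = 0.0484, with 19.6% of all genes called). Adamts1 (0.52, 95% interval -0.52 to 1.55), Adamts4 (0.19, -0.96 to 1.34) and Adamts12 (0.02, -0.67 to 0.71) were not called. Adamts9 was the 1 member with a negative estimate, -0.75 (95% interval -1.69 to 0.19), at 15.1 ± 7.87 CPM in the P2 window and 9.23 ± 5.85 CPM in the P10 window.

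**Figure D2:**
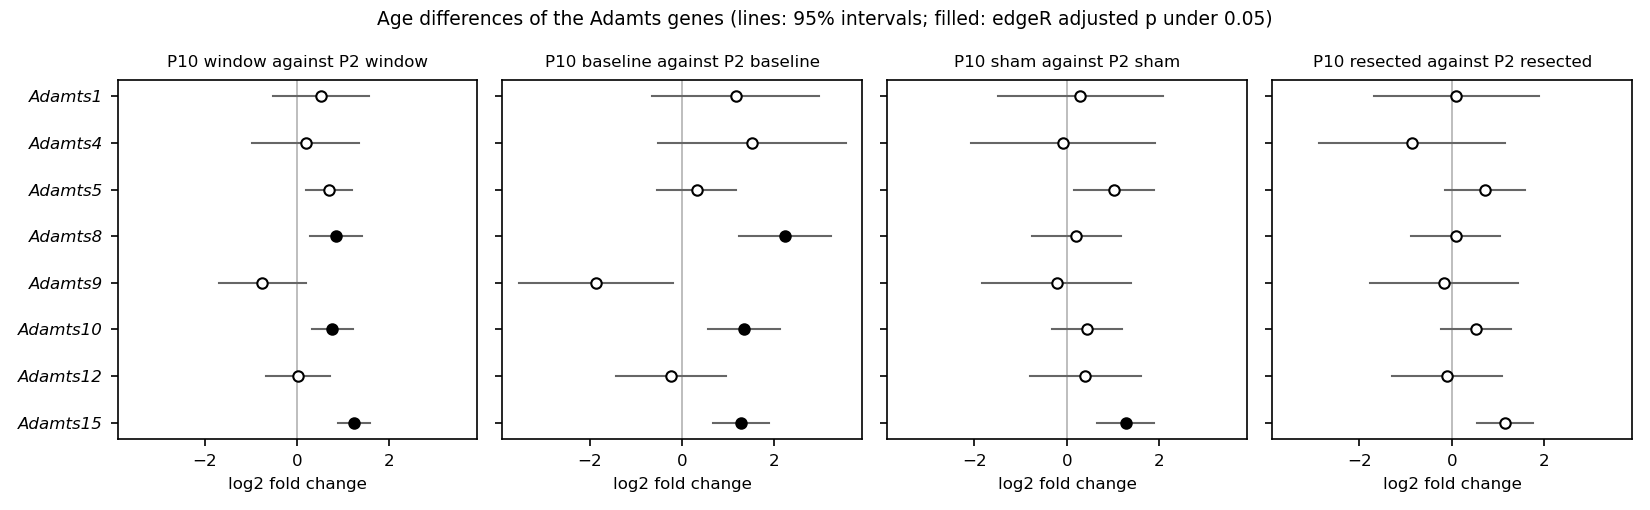
Log2 fold change (P10 over P2) of each Adamts gene with its 95% interval in the window comparison and between the baseline, sham and resected groups, with filled points for an edgeR adjusted p under 0.05. Adamts15 lies between 1.15 and 1.28 in all 4 panels, whereas Adamts8 lies at 2.23 at baseline and at 0.21 and 0.09 after sham surgery and resection.

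At baseline, where un-manipulated hearts of both ages were compared, 3 of 8 members were higher at P10 and 0 were lower, against 2.71% of all genes higher and 4.38% in either direction. Adamts8 had the largest difference, with a log2 fold change of 2.23 (SE 0.48, n = 3 per group, edgeR adjusted p = 0.0126), from 13.9 ± 7.27 CPM at P2 to 65.3 ± 5.14 CPM at P10. The call was lost without P2 baseline replicate 1 or replicate 2 (adjusted p = 0.0770 and 0.0702). Adamts10 rose by 1.34 (SE 0.37, adjusted p = 0.0470), from 121 ± 27.7 to 307 ± 75.3 CPM, but this call was lost in 15 of the 18 fits with 1 library left out, with adjusted p up to 0.166. Adamts9, at 27.4, 19.4 and 12.4 CPM at P2 and 10.7, 3.53 and 1.97 CPM at P10, also had groups that did not overlap, like Adamts8, Adamts10 and Adamts15, but its change of -1.86 was not called (SE 0.79, adjusted p = 0.213). Groups of 3 libraries were separate in 22.4% of all genes tested in this comparison.

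Without the 4 libraries high in Hspa1a and Hspa1b, which leaves 2 libraries at P10 baseline, the baseline comparison called 5 members, against 15.9% of all genes. Adamts9 then fell by 2.82 (edgeR adjusted p = 0.0250) and Adamts12 by 1.24 (adjusted p = 0.00877) on the log2 scale, and Adamts8, Adamts10 and Adamts15 remained called. The estimate of Adamts4 went from 1.51 with all libraries to -0.15, neither called. The P10 baseline library left out had 555 CPM of Adamts4, and the 2 others had 89.0 and 58.2 CPM. For Adamts1 the same 3 libraries had 838, 197 and 163 CPM, and its estimate went from 1.16 to 0.02.

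After sham surgery Adamts15 was the 1 member called between the ages, against 1.54% of all genes higher and 3.18% in either direction. Adamts10 had a log2 fold change of 0.43 (95% interval -0.33 to 1.20) with all libraries and 1.22 without P2 sham replicate 1 (adjusted p = 0.0202). Which member was called therefore depended on the libraries and the tool. Without the 4 libraries high in Hspa1a and Hspa1b, which leaves 2 sham libraries at each age, Adamts10 was called (1.17, SE 0.25, edgeR adjusted p = 0.0224) and Adamts15 was not (1.02, adjusted p = 0.133), against 2.54% of all genes. Limma voom with all libraries likewise called Adamts10 (1.00, adjusted p = 0.0403) and not Adamts15 (0.97, adjusted p = 0.0817), against 4.37% of all genes, and DESeq2 called Adamts15 (1.27, adjusted p = 0.00102), against 7.62% of all genes. Adamts5 had 177, 75.0 and 109 CPM at P2 sham +3 days and 380, 150 and 202 CPM at P10 sham +3 days, a change of 1.02 (95% interval 0.15 to 1.89) that did not pass the correction (adjusted p = 0.225). After resection 0 members were called between the ages by edgeR, against 0.625% of all genes higher and 0.86% in either direction, with 1 member, Adamts15, under an unadjusted edgeR p of 0.05 (0.000888), as against 8.77% of all genes. DESeq2 and limma voom each called Adamts15 there (adjusted p = 0.00583 and 0.0100), against 3.57% and 5.62% of all genes.

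The second comparison asked whether apical resection changed the members relative to sham surgery at the same age. With all libraries 0 of 8 members were called at P2 and 0 of 8 at P10 by edgeR, and 0 had an unadjusted p under 0.05, as against 4.51% of all genes at P2 and 4.09% at P10. Of the 16170 genes tested, 0% passed the adjusted threshold in either comparison. DESeq2 also called 0 members, against 0.0841% of all genes at P2 and 0.222% at P10 (17 and 39 genes), as did limma voom, against 0% at both ages, and edgeR without the filter on low counts, against 0.083% and 0.263% of 28906 genes. The mean resection effect over both ages and the difference of the resection effects between the ages also gave 0 called members, and 0 members with an unadjusted p under 0.05, as against 5.78% and 2.88% of all genes.

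Within groups, the members Adamts1 and Adamts4 varied widely from library to library. Adamts1 was at 610, 62.1 and 88.2 CPM after sham surgery and at 106, 273 and 589 CPM after resection at P2, and at 694, 126 and 110 CPM after sham surgery and 350, 270 and 416 CPM after resection at P10. In 3 of these 4 groups the highest value was in a library high in Hspa1a and Hspa1b, and the P10 resected group holds none of these libraries. The log2 fold change of Adamts1 was 0.35 at P2 (95% interval -1.44 to 2.14) and 0.16 at P10 (-1.63 to 1.94). Adamts4 followed the same libraries, at 293, 38.3 and 50.6 CPM after sham surgery and 86.8, 93.9 and 376 CPM after resection at P2, and at 277, 55.6 and 26.4 CPM and 80.1, 70.4 and 156 CPM at P10. Its change was 0.54 at P2 (-1.46 to 2.54) and -0.23 at P10 (-2.22 to 1.77).

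The intervals were narrowest for Adamts15, which changed by 0.11 at P2 (95% interval -0.49 to 0.71) and -0.01 at P10 (-0.61 to 0.59). Adamts10 was at -0.28 (-1.05 to 0.48) and -0.19 (-0.95 to 0.57), Adamts5 at 0.46 (-0.41 to 1.32) and 0.15 (-0.71 to 1.01), and Adamts8 at 0.19 (-0.77 to 1.15) and 0.07 (-0.89 to 1.03). Adamts12 was at 0.59 (-0.61 to 1.79) and 0.08 (-1.11 to 1.27), and Adamts9 at 0.42 (-1.20 to 2.03) and 0.47 (-1.15 to 2.09). The difference of the resection effects between the ages ranged over the members from -0.77 for Adamts4 (95% interval -3.59 to 2.05) to 0.09 for Adamts10 (-0.99 to 1.17). Both of these turned without the 4 libraries high in Hspa1a and Hspa1b, Adamts4 to 0.29 (-1.09 to 1.68) and Adamts10 to -0.76 (-1.48 to -0.04, unadjusted p = 0.0408, edgeR adjusted p = 0.985), and 0 members and 0% of all genes were called in that fit.

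**Figure D3:**
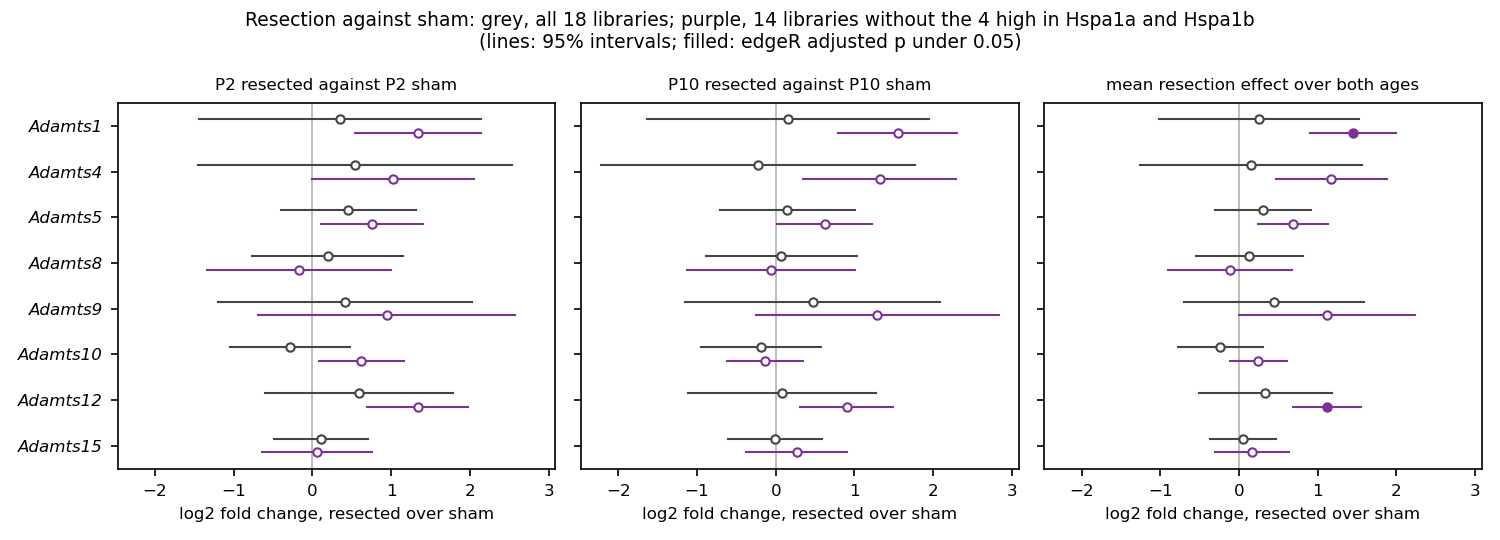
Log2 fold change of resected over sham hearts for each Adamts gene with its 95% interval at P2, at P10 and as the mean over both ages, in grey with all 18 libraries and in purple with 14 libraries, with filled points for an edgeR adjusted p under 0.05. In the mean over both ages Adamts1 moves from 0.25 to 1.44 and Adamts12 from 0.34 to 1.12 when the 4 libraries are left out, and these are the 2 filled points.

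Leaving out the 4 libraries high in Hspa1a and Hspa1b moved the resection estimates of several members. This choice was made after the values were seen, and it is not independent of these genes, since 3 of the 4 libraries are sham or resected libraries with the highest Adamts1 and Adamts4 of their group. The sham libraries left out also had the highest Adamts12 of their groups, 150 CPM at P2 and 204 CPM at P10. The P2 resected library left out, at 128 CPM of Adamts12, lay between its replicates. With the remaining 4 sham and 5 resected libraries, the mean resection effect was 1.44 for Adamts1 (SE 0.26, edgeR adjusted p = 0.0248) and 1.12 for Adamts12 (SE 0.20, adjusted p = 0.0266), and both were called higher, while 1.15% of all genes were called in this fit. Adamts1 was then at 62.1 and 88.2 CPM (P2 sham), 106 and 273 CPM (P2 resected), 126 and 110 CPM (P10 sham) and 350, 270 and 416 CPM (P10 resected). All remaining resected libraries of an age lay above its sham libraries. Adamts12, at 42.1 and 55.7 CPM against 140 and 106 CPM at P2 and at 71.5 and 52.9 CPM against 90.3, 132 and 126 CPM at P10, was separated in the same way. The share of all genes separated like this in such small groups is not given here, so neither separation adds to the calls. Adamts4 (1.17, adjusted p = 0.0767) and Adamts5 (0.69, adjusted p = 0.0914) were not called, and within each single age 0 members passed, against 0.0122% of genes at P2 and 0.0061% at P10.

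Markers of other cell types and the dissociation genes were followed in the same fits. In the mean over both ages with all libraries, 8 of 8 macrophage markers had positive estimates (median log2 fold change 0.84), as did 7 of 8 endothelial markers (0.98), 7 of 8 mural markers (0.50), 7 of the 7 tested epicardial markers (1.03) and 12 of 14 dissociation response genes (0.35). Of the fibroblast markers 4 of 8 (-0.03) and of the cardiomyocyte markers 3 of 8 (-0.27) had positive estimates, beside a median of 0.03 for all genes tested, and 0 genes of these lists were called. At P10 the median of the epicardial markers was 3.15, and their sum was at most 9.12 CPM in the sham and 56.0 CPM in the resected libraries. Without the 4 libraries, when the median of all genes was 0.10, the positive estimates numbered 8 of 8 macrophage markers (median 0.58), 7 of 8 endothelial markers (0.92), 7 of 8 mural markers (0.61), 7 of 7 epicardial markers (0.92), 4 of 8 fibroblast markers (0.19) and 0 of 8 cardiomyocyte markers (-0.45), with 0 called. The dissociation genes then had 14 of 14 positive estimates (median 0.74), 2 of them called (Fosb and Nr4a1), and their sum was at 3712 to 5309 CPM (sham) and 4341 to 9069 CPM (resected) at P2 and at 7979 to 8554 CPM and 11057 to 17606 CPM at P10. The part of these cells and of tissue handling in the resection estimates of Adamts1 and Adamts12 was not tested.

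The third comparison set sham surgery together with 3 days of growth against baseline. At P2 and at P10 0 members were called by edgeR, DESeq2 or limma voom. At P2 and P10 these tools called 0% and 0.00618% (edgeR), 1.02% and 0.963% (DESeq2) and 0% and 0.00618% (limma voom) of all genes. At P2 Adamts8 and Adamts10 had an unadjusted edgeR p under 0.05 (0.0215 and 0.0192), as against 7.6% of all genes, and at P10 0 members did, as against 7.4%. Adamts8 was higher in all 3 sham libraries (29.6 to 33.1 CPM) than in the 3 baseline libraries (9.54 to 22.3 CPM), a change of 1.17 (SE 0.46, adjusted p = 0.602), and at P10 it was lower in all 3 sham libraries (26.3 to 53.0 CPM) than at baseline (62.3 to 71.3 CPM), a change of -0.86 (SE 0.46, adjusted p = 0.729). Neither passed the correction, and 4.48% and 4.69% of all genes were separated in these directions. The contrast added for this, the age difference of Adamts8 at baseline minus the mean of those after sham surgery and resection, was 2.09 (SE 0.57, unadjusted p = 0.00181) and did not pass the correction over all genes either (edgeR adjusted p = 0.261), which 0.0557% of genes did, 0.0247% with a positive contrast. For the other 7 members this contrast ranged from -1.67 (Adamts9) to 1.99 (Adamts4), with unadjusted p of 0.0691 or more. Without the 4 libraries, Adamts12 was lower at P2 sham than at P2 baseline by 1.45 on the log2 scale (adjusted p = 0.0294), a comparison in which 2.14% of all genes were then called. In that comparison Adamts1 went from 0.51 with all libraries to -1.25 (edgeR adjusted p = 0.0728) and Adamts4 from 0.63 to -0.88 (adjusted p = 0.273), and Adamts9 was at -1.62 (adjusted p = 0.218), none of them called. The dissociation genes then summed to 3712 to 5309 CPM (P2 sham) and 6563 to 7439 CPM (P2 baseline), and macrophage markers to 80.9 to 147 CPM and 12.9 to 44.5 CPM. The sums of the other marker lists overlapped. The part of handling and of other cells in the change of Adamts12 was not tested. Between P10 sham and P10 baseline 0 members were called without the 4 libraries, against 0.0122% of all genes.

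The members differed in how much replicates of 1 group varied. The SD of log2 CPM within groups was 1.35 for Adamts4 and 1.21 for Adamts1, at percentiles 97.8 and 95.3 among all genes tested, and 1.05 for Adamts9 (percentile 90.6). It was 0.78 for Adamts12, 0.62 for Adamts8, 0.55 for Adamts5, 0.47 for Adamts10 and 0.36 for Adamts15. Among the 9358 genes with a mean over 10 CPM, Adamts1 and Adamts4 were at percentiles 98.4 and 99.3.

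This variation was shared by several members. With the group means removed, the Pearson correlation of log2 CPM over the 18 libraries was 0.94 between Adamts1 and Adamts4, 0.89 between Adamts4 and Adamts12, 0.88 between Adamts5 and Adamts9, 0.83 between Adamts1 and Adamts12 and 0.75 between the neighbours Adamts1 and Adamts5. With the group means left in, Adamts1 and Adamts4 correlated at 0.90. By this measure 11 of all genes tested were closer to Adamts1 than Adamts4 was, and 5 were closer to Adamts4 than Adamts1 was. Adamts8 stood apart with the group means removed, with correlations of -0.27 to 0.16 with the 7 other members, and -0.11 with its neighbour Adamts15. These values describe libraries that share their depth, their hearts and their handling, and no test is attached to them.

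In the 4 libraries high in Hspa1a and Hspa1b, Adamts1 was at 589 to 838 CPM, against 62.1 to 416 CPM in the other 14. Adamts4 was at 277 to 555 CPM against 26.4 to 156 CPM, again without overlap. For the other members the ranges overlapped. The 4 libraries held 3 of the 4 highest values of Adamts10 and of Adamts12, 2 of those of Adamts5, Adamts8 and Adamts9, and 1 of those of Adamts15. The share of all genes tested that separate these libraries in the same way is not given here. The separation is therefore not shown to be particular to Adamts1 and Adamts4.

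Digestion of the tissue ran longer for older hearts, so that age and handling cannot be told apart by design, and 14 genes known to respond to enzymatic dissociation, Hspa1a and Hspa1b among them, were followed beside the members. Their summed level ranged from 3712 to 9718 CPM in the P2 window and from 7979 to 17606 CPM in the P10 window, and 7 of the 14 (Fos, Jun, Junb, Egr1, Dusp1, Zfp36 and Btg2) were higher in the P10 window. Over the 18 libraries Adamts15 followed this sum with r = 0.67 (permutation p = 0.00275) and rho = 0.67 (permutation p = 0.00344), and with r = 0.77 without the 2 libraries farthest from the median. The permutations over 18 libraries shuffled them without regard to group or window. The pooled p-values therefore also carry any difference between the windows. For Adamts15 r within the windows was -0.26 for the 9 P2 libraries and 0.27 for the 9 P10 libraries (exact permutation p = 0.507 and 0.476). With 9 libraries a relation within a window can be missed, so these values do not show that it is absent. Adamts10 likewise had r = 0.60 over all libraries (permutation p = 0.00970) and rho = 0.62 (permutation p = 0.00653), and 0.64 without the 2 farthest libraries, but 0.33 and -0.25 within the windows (exact permutation p = 0.401 and 0.505). Adamts8 had r = 0.44 (permutation p = 0.0688) and rho = 0.46 (permutation p = 0.0578), and 0.21 and -0.08 within the windows (exact permutation p = 0.574 and 0.833).

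Adamts1 was the 1 member whose relation to the dissociation genes within a window passed the correction over the 8 members. Over the 18 libraries it had r = 0.64 (permutation p = 0.00443) and rho = 0.65 (permutation p = 0.00421), and 0.54 without the 2 farthest libraries. Within the P2 window r was 0.84 (n = 9, two-sided exact permutation p = 0.00532, 0.0426 adjusted over the 8 members) and within the P10 window 0.53 (n = 9, exact permutation p = 0.146, 0.678 adjusted). Adamts4 had r = 0.65 in the P2 window (n = 9, exact permutation p = 0.0575, 0.230 adjusted) and 0.48 in the P10 window (exact permutation p = 0.190), and Adamts12 had 0.55 and 0.22 (exact permutation p = 0.111 and 0.559), and these did not pass. All 8 members were tested, and adjusted over them the pooled p-values were 0.0177 for Adamts15, 0.0177 for Adamts1, 0.0259 for Adamts10 and 0.0387 for Adamts5, and 0.110 or more for the other 4. For Adamts5 the pooled r was 0.55, with rho = 0.41 (adjusted permutation p = 0.126) and 0.26 and 0.27 within the windows. The part of tissue handling in the levels of Adamts1 and Adamts4, and in the age differences of Adamts8, Adamts10 and Adamts15, was not tested.

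**Figure D4:**
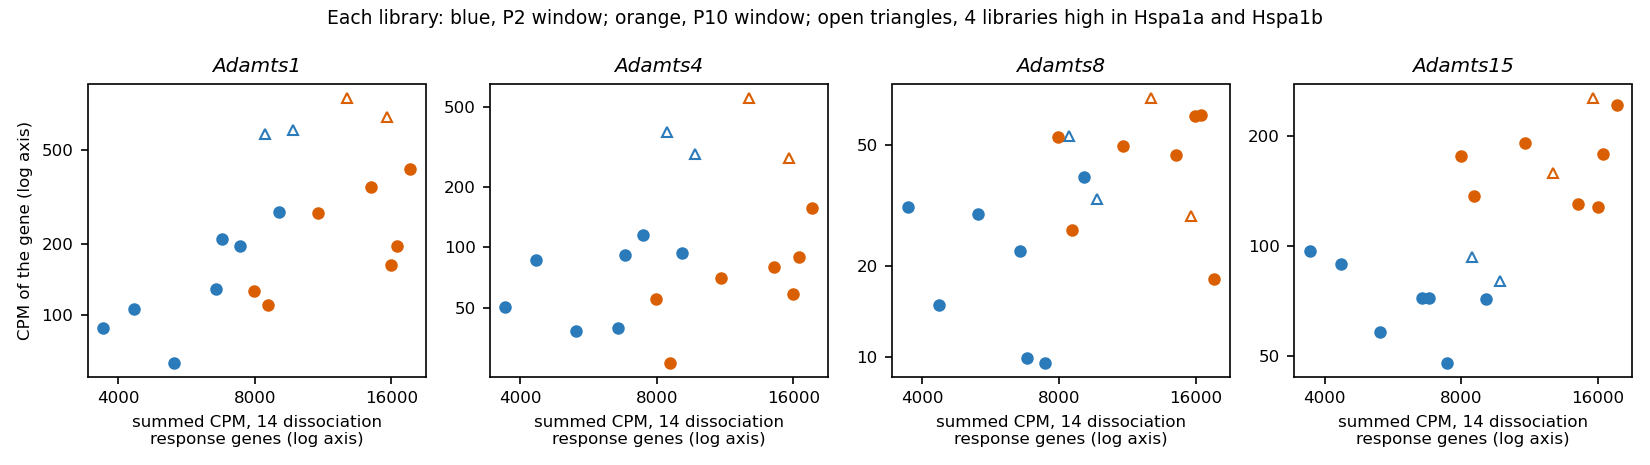
Level of Adamts1, Adamts4, Adamts8 and Adamts15 in CPM against the summed level of 14 dissociation response genes in the same library (both axes logarithmic), with P2-window libraries in blue, P10-window libraries in orange and the 4 libraries high in Hspa1a and Hspa1b as open triangles. For Adamts15 the windows form 2 separate bands with r = -0.26 and 0.27 inside them, whereas Adamts1 climbs with the sum inside the P2 window (r = 0.84).

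Markers of other cell types also moved with age. Of 8 cardiomyocyte markers 5 were lower in the P10 window (Tnnt2, Actc1, Nppa, Myl2 and Pln), of 8 mural markers 3 were higher (Rgs5, Kcnj8 and Myh11), and of 8 fibroblast markers 4 were higher (Col3a1, Gsn, Dcn and Lum). The median log2 fold change of these lists was -0.998 (0 of 8 estimates positive) for cardiomyocyte, 0.18 (5 of 8) for mural and 0.55 (7 of 8) for fibroblast markers. Of the macrophage, endothelial and epicardial markers 0 were called, and their median was 1.13 for macrophage markers (7 of 8 positive), -1.95 for epicardial markers (1 of the 7 tested positive) and 0.15 for endothelial markers (5 of 8). The 8 epicardial markers summed to at most 56.0 CPM in any library. Mural markers summed to 976 to 2260 CPM in the P2 window and 973 to 1781 CPM in the P10 window. The part of these cells in the age differences of Adamts8, Adamts10 and Adamts15 was not tested.

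The genes most like each called member over the 18 libraries, by Pearson correlation of log2 CPM among all genes tested, were Mamdc2 (0.95), Gfpt2 (0.93) and Adgrd1 (0.93) for Adamts15. For Adamts10 they included Cyp27a1 (0.93) and Kcp (0.91), and for Adamts8 they were Mknk2 (0.90), Rasl11b (0.86) and Cpm (0.86), the last a carboxypeptidase gene. These correlations span both windows, between which the called members differ. Whether the genes named here differ between the windows themselves is not reported.

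The genes around the members in the same pathway were followed from a list of 39, of which 33 passed the filter. In the P10 window 12 of the 33 rose and 1 fell, against 7.11% and 6.39% of all genes, and their median log2 fold change was 0.67 beside -0.06 for all genes tested. With 1 library left out the 13 calls became 10 to 15.

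Among the other Adamts proteases, Adamts2, a procollagen N-proteinase, rose by 0.97 (SE 0.12, edgeR adjusted p = 2.41e-05), from a mean of 808 to 1563 CPM, and Adamts14, which also trims procollagen, fell by 0.60 (adjusted p = 0.0409), from 84.1 to 54.8 CPM. The other 7 of the 9 tested were not called, and Adamts13 and Adamts18 did not pass the filter. Of the 6 Adamts-like proteins, which keep the thrombospondin repeats but lack the protease domain, 4 rose. Adamtsl2, which binds fibrillin and latent TGF-beta binding protein, rose by 2.24 (SE 0.25), from 53.3 to 248 CPM, and Adamtsl4, another microfibril-associated protein, by 1.58 (SE 0.13), from 64.8 to 190 CPM. Papilin (Papln) rose by 2.32 and Adamtsl3 by 0.71.

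Of the 8 inhibitors, cofactors and clearance genes 5 rose. Timp2 rose by 1.19 (SE 0.09, edgeR adjusted p = 3.88e-07), from 1341 to 3042 CPM, Timp3 by 0.79 (SE 0.16, adjusted p = 0.00256), from 185 to 322 CPM, Timp1 by 0.80 and the membrane-anchored inhibitor Reck by 0.67. For Timp3, 21.3% of the exon bases are shared with Syn3 on the other strand, and the reads of the 2 genes cannot be told apart there. Fibulin-1 (Fbln1), a cofactor of Adamts1 and Adamts5, rose by 1.37 (SE 0.17, adjusted p = 3.17e-05), from 295 to 735 CPM. Lrp1 (0.87, adjusted p = 0.0646), Sdc4 and Timp4 were not called. Of the 6 genes for activation and O-fucosylation, the convertase Pcsk6 rose by 1.68 (SE 0.12) and Furin by 0.48 (SE 0.13, adjusted p = 0.0191), and Pcsk5, Pcsk7, Pofut2 and B3glct were not called.

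The substrate list gave 0 calls. Versican (Vcan), the substrate that several members cut, had 387 CPM in the P2 window and 216 CPM in the P10 window, a change of -0.80 (SE 0.42, adjusted p = 0.226) that did not pass. Aggrecan (Acan), Hapln1 and Hapln3 were at means of 2.01 CPM or less in both windows, and Bcan, Ncan, Hapln2 and Hapln4 did not pass the filter.

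**Figure D5:**
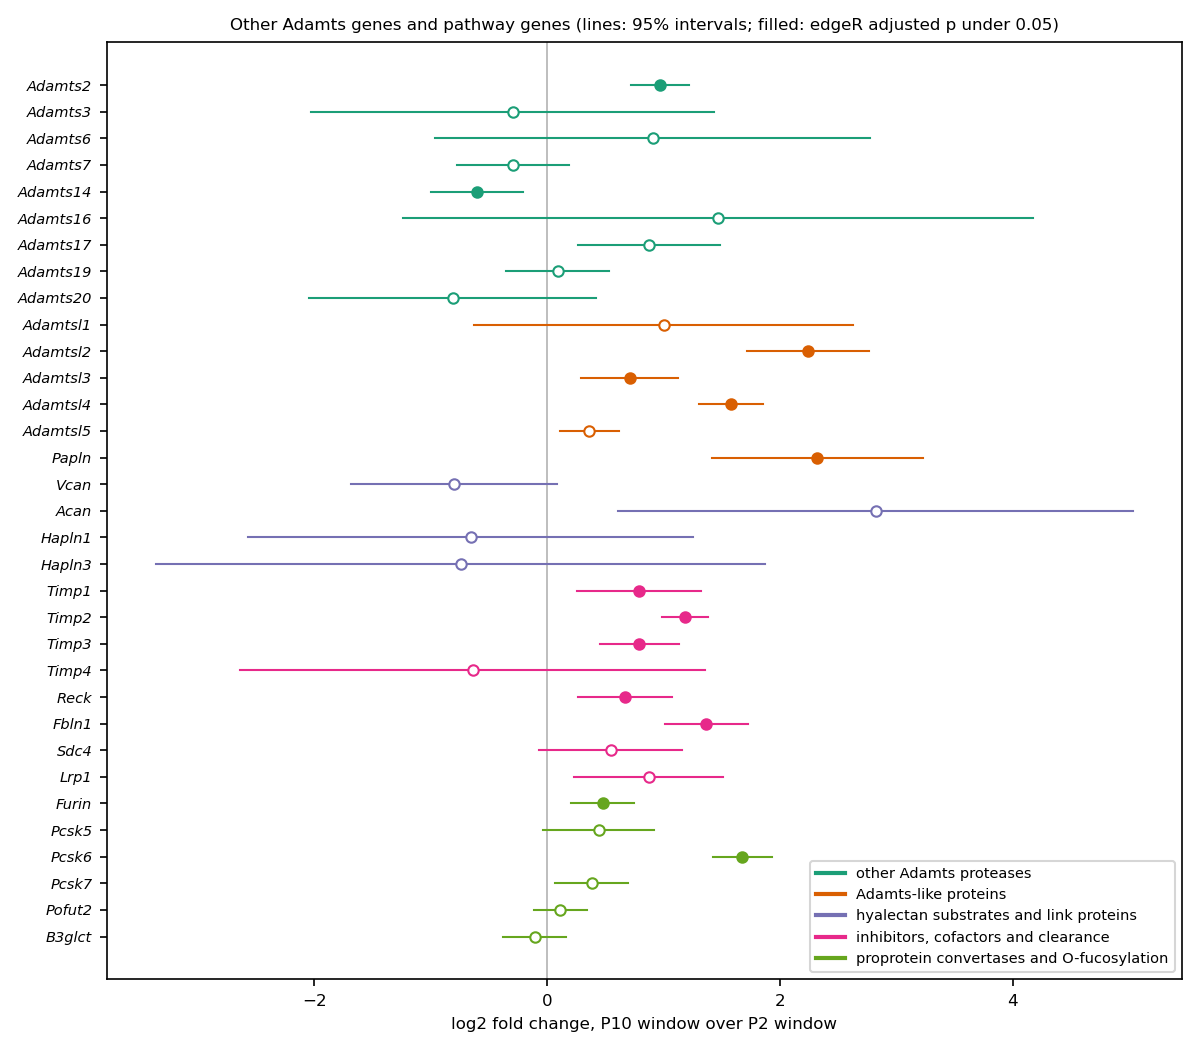
Log2 fold change (P10 window over P2 window) with its 95% interval for the 33 tested genes around the Adamts members, coloured by list, with filled points for an edgeR adjusted p under 0.05. The 12 filled points to the right of 0 include Pcsk6 (1.68), Timp2 (1.19), Fbln1 (1.37) and Adamtsl2 (2.24), and the 1 to the left is Adamts14 (-0.60).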

How the data were processed

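Bulk RNA sequencing of 18 libraries was analysed, and the spatial and imaging data of the study were not used here. The deposited values are raw read counts per gene symbol. Per the labels and the study's methods, the authors trimmed reads with fastp 0.20.0, aligned them with STAR 2.7.0f to GRCm38.p6 and counted reads on exons of GENCODE M22 with featureCounts (Subread 1.6.4) without regard to strand, so overlapping genes on opposite strands are not separated. Groups were taken from the sample descriptions.

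Counts were analysed in R 4.3.3 with edgeR 4.0.16. Genes passing filterByExpr (minimum count 10, minimum total 15; 16170 of the 28906 with at least 1 count) were scaled by TMM and fitted by quasi-likelihood over all 18 libraries, each of the 6 groups having its own mean, and comparisons were contrasts of these means, called at a Benjamini-Hochberg adjusted p under 0.05. SEs are the log2 fold change divided by the root of F, and intervals are 95%. The study's own tool, DESeq2 (version 1.42.0 here), limma voom with quality weights (3.58.1), RLE scaling, no filter, only the groups compared, a replicate block, and each library left out were run as alternatives. RPKM used the union of exons in GENCODE M21, an earlier release than the authors counted on. Correlations used log2(CPM + 0.5), with two-sided permutation tests (1e+05 resamples, exact for 9 libraries, SciPy 1.17.1). The edgeR step was also tested on simulated counts. Promoters came from RefSeq and matched 3 of the 8 members.

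All 8 members were named in every comparison. Genes of the other lists were named where they were called in the window comparison, as were Timp3, Vcan and Fbln1 whatever their result. For each called member the 3 genes most like it over the 18 libraries were named, except 1 that is not reported here. Other genes of those lists named without a call, and the genes singled out among the markers, were added after their values were seen. The members and lists were chosen with earlier results of these data known.

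Replicates correlated at 0.883 to 0.973 over genes, and differed by more than sampling noise (chi-square per gene 34.2 to 295), so none was counted as a duplicate. The sources do not say that replicates came from separate animals, so p-values measure the spread between these libraries. The smallest library, with 10462737 reads, sets the least precise values. The replicate numbers of the labels did not pair libraries over the design, with correlations of deviations from -0.18 to 0.44 over 21 pairs. All 3 pairs exceeded 0.1 for resected hearts at P10 against P2 and for P10 sham against P10 baseline, where the block changed no call of a member.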

Additional observations from a re-analysis of the deposited data

How the results depend on the processing

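The age differences of Adamts15 and Adamts10 between the windows were called under all 24 alternatives each, while Adamts8 was called in 11 of 24. RLE scaling changed no direction and no call of a member. Percentages are the share of all genes called in the same fit. Without a filter on low counts the window comparison called 5 members (9.54%), baseline 6 (4%), sham 2 (3.15%), resected 1 (1.82%) and the test of any difference 5 (7.89%). Limma voom called 5 at baseline (22.5%), 1 between the resected groups (5.62%) and 4 in the test of any difference (23.6%), DESeq2 called 1 between the resected groups (3.57%) and its likelihood ratio test 2 (13.9%). In the window both called 4 (28.3% and 18.5%), Adamts5 being added. With only the groups compared, sham gave 0 (0.908%) and resected 1 (2.34%). Without the 4 libraries high in Hspa1a and Hspa1b, chosen after seeing the data, the window gave 4 (19.6%), baseline 5 (15.9%), the mean resection effect 2 (1.15%), P2 sham against baseline 1 (2.14%) and the test of any difference 5 (15.2%). Between the sham groups limma voom and the fit without the 4 libraries each called 1 member, as edgeR did with all libraries, but it was Adamts10 (adjusted p = 0.0403 and 0.0224) and not Adamts15 (0.0817 and 0.133), as it also was without P2 sham replicate 1. With 1 library left out the members called numbered 0 to 3 at baseline (1.53% to 7.04%), 0 to 1 after sham surgery (1.81% to 3.66%), 0 to 1 after resection (0.174% to 1.14%) and 1 to 2 in the test of any difference (3.38% to 7.07%). Where 2 libraries remain in a group, they are assumed to vary like the others. The causes of these changes were not tested.

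With a replicate block the window comparison called 4 members, against 17% of all genes, Adamts5 being added (0.64, edgeR adjusted p = 0.0143), Adamts15 after resection had an adjusted p of 0.0626, and no other call of a member changed. Under the block the log2 estimates, none called, of Adamts4 (-0.055) and Adamts12 (-0.050) in the window, of Adamts1 between the resected groups (-0.12) and of Adamts4 for resection at P10 (0.42) changed sign.

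Other estimates changed sign too, none of them called; the lists for limma voom, the block and single libraries left out cover the age comparisons, resection within each age and its mean. Most were small with all libraries, but Adamts4 was at 1.51 at baseline and at -0.86 between the resected groups. With limma voom these were Adamts4 (-0.32) and Adamts12 (-0.30) in the window, Adamts5 at baseline (-0.13), Adamts9 between the resected groups (0.050), Adamts10 (0.27) and Adamts15 (-0.0083) for resection at P2, Adamts4 (0.94) and Adamts15 (0.061) for resection at P10 and Adamts10 (0.046) for the mean resection effect. Without the 4 libraries they were Adamts4 (-0.032) and Adamts12 (-0.33) in the window, Adamts4 (-0.15) and Adamts5 (-0.27) at baseline, Adamts4 (0.18) and Adamts9 (0.071) between the resected groups, Adamts8 (-0.17) and Adamts10 (0.62) for resection at P2, Adamts4 (1.32), Adamts8 (-0.059) and Adamts15 (0.26) for resection at P10, Adamts8 (-0.11) and Adamts10 (0.24) for the mean effect, Adamts1 (0.21), Adamts4 (0.29), Adamts8 (0.11), Adamts10 (-0.76) and Adamts15 (0.21) for the difference of the resection effects, Adamts1 (-1.25) and Adamts4 (-0.88) for P2 sham against baseline and Adamts12 (0.14) for P10 sham against baseline.

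With 1 library left out, the estimates that changed sign ranged as follows. In the window, Adamts4 ranged from -0.37 to 0.69 and Adamts12 from -0.31 to 0.27. At baseline, Adamts4 ranged from -0.15 to 1.97, Adamts5 from -0.27 to 0.56 and Adamts12 from -1.24 to 0.16. After sham surgery, Adamts1 ranged from -1.10 to 2.04, Adamts4 from -1.64 to 1.43, Adamts8 from -0.18 to 0.39, Adamts9 from -1.04 to 0.54 and Adamts12 from -0.41 to 1.16. After resection, Adamts1 ranged from -0.32 to 0.86, Adamts4 from -1.28 to 0.18, Adamts8 from -0.29 to 0.49, Adamts9 from -0.52 to 0.11 and Adamts12 from -0.21 to 0.044. For resection at P2, Adamts1 ranged from -0.41 to 2.11, Adamts4 from -0.49 to 2.06, Adamts8 from -0.21 to 0.57, Adamts9 from -0.12 to 1.18, Adamts10 from -0.57 to 0.51 and Adamts15 from -0.074 to 0.30. For resection at P10, Adamts1 ranged from -0.25 to 1.55, Adamts4 from -0.70 to 1.32, Adamts5 from -0.11 to 0.62, Adamts8 from -0.16 to 0.46, Adamts12 from -0.25 to 0.90 and Adamts15 from -0.24 to 0.26. For the mean resection effect, Adamts1 ranged from -0.13 to 1.13, Adamts4 from -0.36 to 0.93, Adamts8 from -0.068 to 0.33, Adamts10 from -0.38 to 0.16 and Adamts15 from -0.073 to 0.19.

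Per length, the levels with the longest transcript were 58.4 RPKM for Adamts10, 21.4 for Adamts15 and 1.51 for Adamts9, further from the values above than 1 SD.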
